A study of Mus musculus with 14 samples.

Results

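The TGF-beta genes described here are 8 of the 49671 genes counted in freshly sorted mouse satellite cells, the resident stem cells of muscle. They were taken by symbol from both count tables of the study. They comprise the ligand genes Tgfb1, Tgfb2 and Tgfb3, the receptor genes Tgfbr1 and Tgfbr2, Inhba, which encodes the beta A subunit of activin, Gdf15, which encodes a distant member of the same ligand superfamily, and Skil, which encodes the corepressor SnoN. TGF-beta is secreted in a latent form, and once freed it binds TGFBR2, which joins and phosphorylates TGFBR1. TGFBR1 in turn phosphorylates SMAD2 and SMAD3, which enter the nucleus with SMAD4 and act there on target genes. In muscle, TGF-beta signalling is known for holding back myogenic differentiation and fusion and for promoting scar formation.

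Each library was made from 1000 cells, which were sorted from resting muscle of the hind limbs, pectorals and triceps of mice of the strain C57BL/6J. Sorted cells carried integrin B1 and CXCR4 on their surface, while cells positive for CD31, CD45, Sca1, CD11b or Ter119 were gated out. In the first dataset, 4 libraries labelled FosGFP+ and 4 labelled FosGFP- came from 4-month-old FosGFP animals, which carry a green fluorescent reporter of the transcription factor gene Fos, and the series text gives 4 mice. In the second, 3 libraries labelled FoscKO and 3 labelled Control came from 6-month-old animals, for which the series text gives 3 mice and a FosGFP+ gate in both arms. FoscKO names a conditional deletion of Fos. The Cre driver, its induction and the deleted part of the gene are not given in the sources used here. The labels do not say which mouse a library came from, so the p-values below measure only the spread between libraries, which may be technical. The questions were whether these genes differ between the FosGFP+ and FosGFP- libraries and between those labelled FoscKO and Control.

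Libraries held 3806776 to 5983711 counts in genes in FosGFP+ and 2652230 to 4067543 in FosGFP-, and 4797954 to 10241655 in FoscKO against 5326686 to 6930696 in Control. The share of reads counted in genes was 17.0 to 23.2% in FosGFP+ and 10.3 to 14.1% in FosGFP-. An even background of reads over the genome, estimated from the receptor genes of taste and smell, came to 0.645 to 0.930 CPM (counts scaled to the size of the library) per exonic kb in FosGFP+ and 0.952 to 1.24 in FosGFP-. Summed CPM of 12 satellite cell markers was 11881 to 15391 in FosGFP+ and 5384 to 8523 in FosGFP-, and 6 of the 12 were called higher. Endothelial markers summed to 194 to 235 CPM in FosGFP+ and 231 to 347 CPM in FosGFP- (1 of 9 tested called lower), leukocyte markers to 54.5 to 86.5 CPM and 76.5 to 138 CPM (0 of 6 called), and those of fibro-adipogenic progenitors to 2037 to 2921 CPM and 1300 to 3102 CPM (1 of 9 lower). Most of the progenitor sum was Col3a1, at 1358 to 2615 CPM in FosGFP+ and 775 to 2249 CPM in FosGFP-. That sum therefore says little about the other progenitor markers. No marker of these lists was at 0 in all libraries of a group. Of the defining markers of other cells, Pecam1 (endothelium) lay at 13.0 to 21.6 CPM in FosGFP+ and 20.9 to 24.7 CPM in FosGFP-, Ptprc (leukocytes) at 29.7 to 51.2 CPM and 43.4 to 74.4 CPM, and Pdgfra (fibro-adipogenic progenitors) at 8.35 to 20.7 CPM and 19.8 to 37.7 CPM. Pax7, the defining satellite cell gene, was counted in every library, at 38.7 to 79.6 CPM in FosGFP+ and 41.8 to 85.9 CPM in FosGFP-. Calcr, another of the 12 satellite cell markers, lay at 124 to 160 CPM in FosGFP+ and 174 to 257 CPM in FosGFP-. Sdc4, the largest part of their sum, lay at 3898 to 6819 CPM and 1507 to 3245 CPM. Myod1, also among the 12, lay at 1643 to 1982 CPM in FosGFP+ and 375 to 703 CPM in FosGFP-. None of the 12 was called lower. Fos itself was lower in the libraries labelled FosGFP+, at 5243, 5398, 3098 and 4606 CPM, against 12883, 11592, 7908 and 11302 CPM in FosGFP-, which goes against the reporter's name. In FoscKO it stood at 8442, 2876 and 3805 CPM, against 5044, 5025 and 4733 CPM in Control, a log2 fold change of 0.03 ± 0.39 (SE; edgeR adjusted p = 0.996) that turned to -0.56 without FoscKO replicate 1. A gene-level count does not show which part of Fos the reads cover, so it does not check the deletion. Directions below therefore refer to the libraries by their labels.

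In the FosGFP+ libraries Tgfb2 and both receptor genes were higher than in FosGFP-, by 1.89 to 2.21 times, and Gdf15 was lower, at 0.320 of the FosGFP- level. All 8 genes passed the filter on low counts. Of them 3 were called higher and 1 lower at an adjusted p under 0.05 by the edgeR quasi-likelihood test with Benjamini-Hochberg adjustment over all genes tested. Over those 20698 genes, 10.3% were called higher, 1.85% lower and 12.1% in either direction. In 4 of the 8 the FosGFP+ and FosGFP- libraries did not overlap, 3 of them higher in FosGFP+ and 1 lower. Of all genes tested 19.3% did not overlap, 12.9% higher and 6.45% lower. The median log2 fold change was 0.67 over the 8 and -0.18 over all genes tested. Those genes were not matched to the 8 in level, so the medians and shares do not set the 8 apart from genes of like level. Scaling by TMM from genes of at least 50 CPM moved the median of all genes by -0.58.

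**Figure D1:**
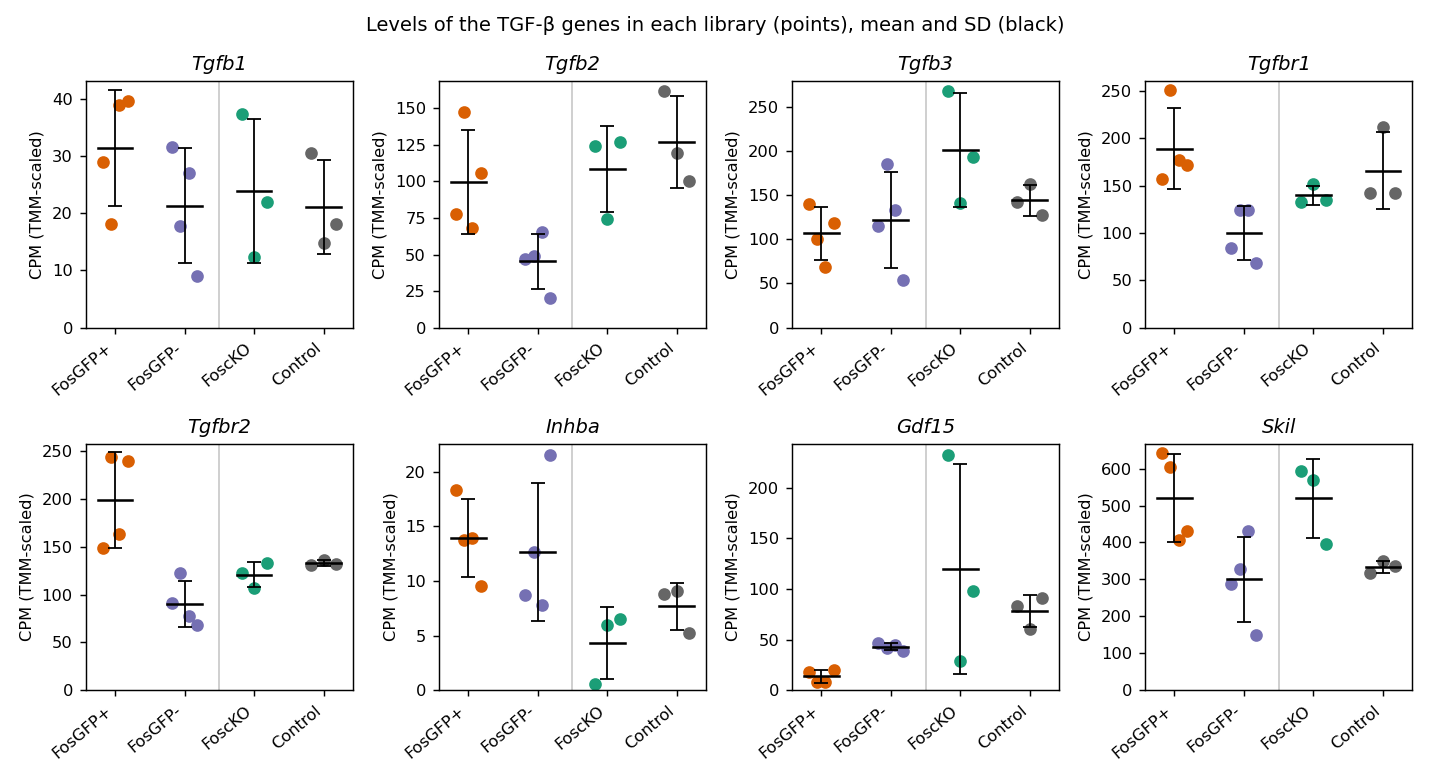
CPM, on a linear axis from 0, of each of the 8 genes, with FosGFP+ left of FosGFP- and FoscKO left of Control; points are libraries and black lines are the group mean and SD. Tgfb2, Tgfbr1, Tgfbr2 and Gdf15 are the genes in which the FosGFP+ and FosGFP- points do not overlap, and Skil is the gene in which FoscKO and Control do not.

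Among the 3 ligand genes, Tgfb2 was the member called higher in the FosGFP+ libraries. Its levels were 77.4, 147, 68.3 and 106 CPM in FosGFP+, against 46.8, 48.8, 65.3 and 20.3 CPM in FosGFP-. Every FosGFP+ library lay above every FosGFP- library, although FosGFP+ replicate 3 and FosGFP- replicate 3 nearly met. The mean was 99.8 ± 35.5 CPM in FosGFP+ and 45.3 ± 18.6 CPM in FosGFP- (SD, n = 4 each), and the log2 fold change was 1.14 ± 0.31 (SE; edgeR adjusted p = 0.0237). The call is lost when libraries are scaled by total counts (0.75, edgeR adjusted p = 0.0623) or by TMM from genes of at least 50 CPM (0.57, adjusted p = 0.0928), and when the even background is subtracted (1.07, adjusted p = 0.0898). It is also lost without FosGFP+ replicate 2 (0.93, adjusted p = 0.0807) or FosGFP- replicate 1 (1.17, adjusted p = 0.0538).

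Tgfb2 lies on chromosome 1 (GRCm38, chr1:186622792-186705989, minus strand). The 250 bases before its RefSeq start (GRCm38.p6, chr1:186705990-186706239, minus strand) are shown because Tgfb2 is the ligand gene that passed the test, with capitals marking matches on either strand to the letters TGACG (core of the cyclic AMP response element), CACGTG (an E-box), TATAAA and CCAAT.
Tgfb2 promoter: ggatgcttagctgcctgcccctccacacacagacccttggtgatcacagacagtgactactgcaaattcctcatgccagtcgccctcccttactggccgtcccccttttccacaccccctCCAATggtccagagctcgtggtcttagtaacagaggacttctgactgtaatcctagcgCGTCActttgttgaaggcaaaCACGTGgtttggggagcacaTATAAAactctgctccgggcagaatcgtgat
The TATAAA match begins 31 bases before the start, the E-box 51, the response element core, read on the other strand, 72, and the CCAAT match 130. Of 32851 RefSeq promoter windows of the same length, 12.4% hold TATAAA, 6.02% CACGTG, 17.8% TGACG and 33.8% CCAAT. A match is a run of letters and not a shown binding site.

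Tgfb1, the ligand gene best known from blood cells and platelets, was at low levels in these cells, at 29.1, 18.2, 39.0 and 39.6 CPM in FosGFP+, against 31.6, 17.8, 27.0 and 8.96 CPM in FosGFP-. The groups overlapped, and the log2 fold change of 0.55 ± 0.35 (SE; edgeR adjusted p = 0.337) did not pass. Tgfb3 had 140, 101, 68.5 and 119 CPM in FosGFP+, against 115, 185, 133 and 53.8 CPM in FosGFP-. FosGFP- held both the highest and the lowest of these 8 libraries, and the log2 fold change was -0.19 ± 0.30 (SE; edgeR adjusted p = 0.712). With TMM from genes of at least 50 CPM, Tgfb3 was called lower in FosGFP+ (-0.74, edgeR adjusted p = 0.041). Tgfb2 and Tgfb3 share 124 and 163 exonic bases with genes of the opposite strand, Gm29491 and Gm37804, and the library kit does not keep the strand. Those genes had 0 to 5 and 1 to 15 counts per library, and reads from the shared bases cannot be told apart. A further 257 exonic bases of Tgfb3 are shared with Gm48008, which is not among the genes counted in either dataset.

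The balance of the 3 ligands within a library does not depend on how libraries are scaled, and it was examined after the levels had been seen. Per exonic kb, Tgfb2 made up 22.1, 43.3, 29.6 and 29.9% of the ligand signal in FosGFP+, against 16.7, 12.6, 20.1 and 16.6% in FosGFP-. Every FosGFP+ share lay above every FosGFP- share, with means of 31.2% ± 8.79 in FosGFP+ and 16.5% ± 3.05 in FosGFP- (SD, n = 4 each; two-sided exact permutation p = 0.0286, which is the lowest possible with 4 against 4, and 0.114 after Benjamini-Hochberg adjustment over 8 such comparisons). The Tgfb3 share was 50.6 to 68.3% in FosGFP+ and 70.3 to 82.1% in FosGFP-, without overlap (exact permutation p = 0.0286, adjusted 0.114). The Tgfb1 share overlapped, at 12.0% ± 5.67 in FosGFP+ and 9.05% ± 3.16 in FosGFP- (SD, n = 4 each; exact permutation p = 0.429, adjusted 0.686). With the even background subtracted, the mean Tgfb2 share was 31.1% in FosGFP+ and 14.8% in FosGFP-.

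**Figure D2:**
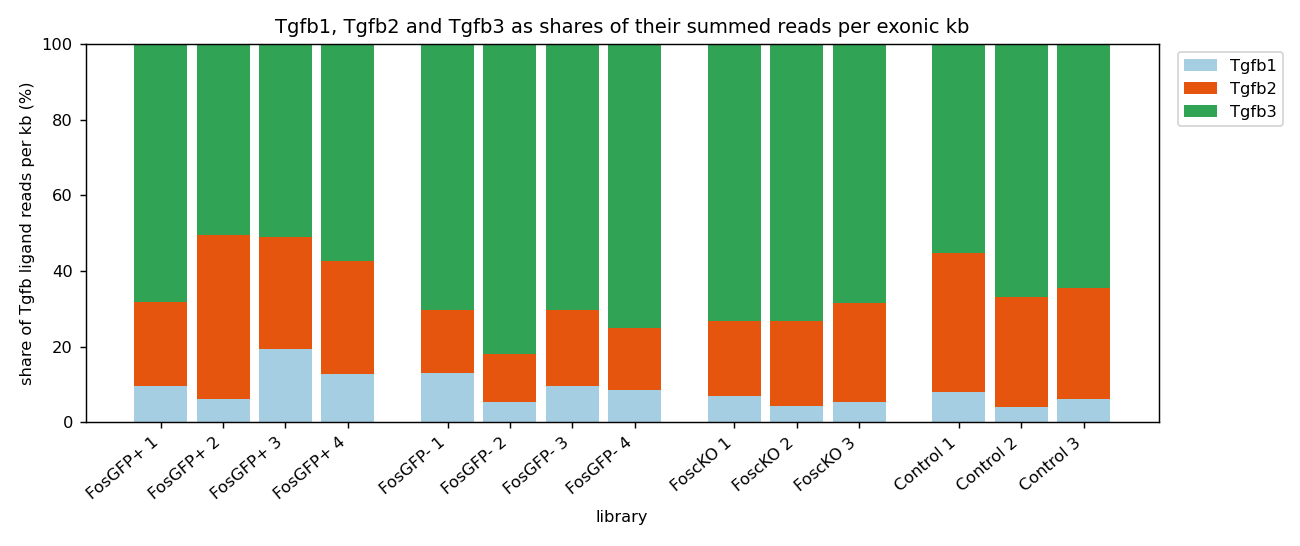
Share (%) of each of the 3 ligand genes in their summed signal per exonic kb as 1 stacked bar per library, with FosGFP+ left of FosGFP- and FoscKO left of Control. The Tgfb2 share is 22.1 to 43.3% in FosGFP+ and 12.6 to 20.1% in FosGFP-, and 19.8 to 26.2% in FoscKO against 28.9 to 36.8% in Control.

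Both receptor genes were higher in the FosGFP+ libraries. Tgfbr2, which encodes the ligand-binding receptor kinase, had 148, 244, 163 and 240 CPM in FosGFP+, against 91.8, 123, 77.6 and 68.4 CPM in FosGFP-. The groups did not overlap, and the means were 199 ± 49.99 CPM in FosGFP+ and 90.1 ± 23.7 CPM in FosGFP- (SD, n = 4 each). The log2 fold change of 1.14 ± 0.23 (SE; edgeR adjusted p = 0.00341) kept its call under every scaling tried and without any single library. Tgfbr1, which encodes the partner kinase that phosphorylates SMAD proteins, had 157, 251, 177 and 172 CPM in FosGFP+, against 83.8, 125, 124 and 68.7 CPM in FosGFP-. These groups did not overlap either, and the means were 189 ± 42.4 CPM in FosGFP+ and 100 ± 28.4 CPM in FosGFP- (SD, n = 4 each). Its log2 fold change of 0.92 ± 0.23 (SE; edgeR adjusted p = 0.0135) lost its call with total counts (0.53, adjusted p = 0.0602) and with TMM from genes of at least 50 CPM (0.35, adjusted p = 0.133). Per exonic kb, the ratio of Tgfbr2 to Tgfbr1 was 0.845 ± 0.178 in FosGFP+ and 0.739 ± 0.164 in FosGFP- (SD, n = 4 each; exact permutation p = 0.571, adjusted 0.7), so no difference in receptor balance was detected.

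Tgfbr1 lies on chromosome 4 (chr4:47353222-47414931, plus strand) and Tgfbr2 on chromosome 9 (chr9:116084293-116175360, minus strand). Their promoters are shown because the 2 genes of the receptor pair were called in the same direction. They are the 250 bases before the RefSeq start of Tgfbr1 nearest the gene's 5' end (GRCm38.p6, chr4:47352972-47353221, plus strand) and of Tgfbr2 (GRCm38.p6, chr9:116175364-116175613, minus strand), with CCAAT matches on either strand in capitals.
Tgfbr1 promoter: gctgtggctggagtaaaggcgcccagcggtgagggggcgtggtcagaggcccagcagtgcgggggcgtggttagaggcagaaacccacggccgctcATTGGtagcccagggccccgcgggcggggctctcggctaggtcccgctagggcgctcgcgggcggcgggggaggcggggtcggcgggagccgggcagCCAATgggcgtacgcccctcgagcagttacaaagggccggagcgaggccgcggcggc
Tgfbr2 promoter: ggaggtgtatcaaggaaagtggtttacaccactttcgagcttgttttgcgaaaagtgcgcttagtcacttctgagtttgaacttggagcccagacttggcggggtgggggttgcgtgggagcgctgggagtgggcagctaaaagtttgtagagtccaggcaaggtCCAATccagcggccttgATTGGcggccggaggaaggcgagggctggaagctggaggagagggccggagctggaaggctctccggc
Neither window holds TATAAA. Each holds a pair of CCAAT matches in opposite orientations, beginning 154 and 57 bases before the start in Tgfbr1 and 85 and 68 bases before it in Tgfbr2. The Tgfbr1 window is 74.8% G and C and also holds the GC box letters GGGCGG at 133 and 95 bases, which 32.7% of all promoter windows hold. The Tgfbr2 window is 58.4% G and C.

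Gdf15 is a secreted factor induced by cell stress that acts through the hindbrain receptor GFRAL. It was the member called lower in the FosGFP+ libraries, at 17.6, 8.35, 8.53 and 20.5 CPM in FosGFP+, against 46.8, 41.9, 45.1 and 38.5 CPM in FosGFP-. The FosGFP- libraries lay close together and all above the highest FosGFP+ library. The means were 13.7 ± 6.23 CPM in FosGFP+ and 43.1 ± 3.65 CPM in FosGFP- (SD, n = 4 each), from 30 to 94 counts and 129 to 210 counts per library. The log2 fold change of -1.64 ± 0.30 (SE; edgeR adjusted p = 0.00194) kept its call under every scaling tried and without any single library.

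Gdf15 lies on chromosome 8 (chr8:70629393-70632456, minus strand), and the window before its upstream RefSeq start (GRCm38.p6, chr8:70632457-70632706, minus strand) is shown for contrast, since the gene was called in the other direction.
Gdf15 promoter: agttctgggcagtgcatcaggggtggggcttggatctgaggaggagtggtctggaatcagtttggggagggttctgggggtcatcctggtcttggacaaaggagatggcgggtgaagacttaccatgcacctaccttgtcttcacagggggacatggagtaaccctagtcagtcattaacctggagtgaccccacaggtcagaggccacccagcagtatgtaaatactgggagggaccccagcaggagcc
It holds none of the letters searched. The window before the downstream RefSeq start of Gdf15, not printed, holds CACGTG at 83 and a CCAAT match at 6 bases before that start. The AP-1 letters TGANTCA, the sequence bound by dimers of FOS and JUN proteins, were searched on both strands in the 8 windows of the 6 members with a RefSeq promoter (Tgfb1, Tgfb2, Tgfbr1, Tgfbr2, Inhba and Gdf15) and matched in none of them. Over all promoter windows of this length 6.75% hold them. A window without a match shows only that these letters are not in these 250 bases.

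Inhba was low in every group and showed no detectable difference. It had 18.3, 13.8, 13.9 and 9.58 CPM in FosGFP+, against 8.69, 12.6, 7.76 and 21.5 CPM in FosGFP-, with overlap. The log2 fold change was 0.14 ± 0.37 (SE; edgeR adjusted p = 0.828), and it turned to -0.29 with total counts and -0.49 with TMM from genes of at least 50 CPM. Per exonic kb Inhba averaged 2.18 ± 0.560 CPM in FosGFP+ and 1.98 ± 0.981 CPM in FosGFP- (SD). These means lay above the even background of 0.645 to 0.930 CPM per kb in FosGFP+ and 0.952 to 1.24 CPM per kb in FosGFP-. In FosGFP- the spread of Inhba reached down into that background range.

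Skil encodes SnoN, which holds SMAD complexes in check at their target genes and is itself induced by TGF-beta. It had 643, 604, 407 and 432 CPM in FosGFP+, against 289, 329, 431 and 151 CPM in FosGFP-. FosGFP- replicate 3 lay above FosGFP+ replicate 3, and the other FosGFP- libraries lay below all of FosGFP+. The log2 fold change of 0.80 ± 0.26 (SE; edgeR adjusted p = 0.0604) missed the threshold. It passed without a filter on low counts (adjusted p = 0.0163), with a filter at 5 CPM (0.0463), by DESeq2 (0.0216), by limma-voom (0.0399), and without FosGFP+ replicate 3 (0.0376) or FosGFP- replicate 3 (0.0207). It stayed above the threshold with total counts (0.42, adjusted p = 0.166) and with TMM from genes of at least 50 CPM (0.25, adjusted p = 0.337). The authors' deposited table of genes past their threshold lists Skil at a log2 fold change of 0.82 ± 0.28 (adjusted p = 0.0222, sign turned to FosGFP+ minus FosGFP-). The same authors' deposited table lists the 4 called genes, with Tgfbr2 at 1.17, Tgfb2 at 1.12, Tgfbr1 at 0.96 and Gdf15 at -1.42. The direction of that table was read from the counts used here, so a shared direction is not separate support. The table does not list Tgfb1, Tgfb3 or Inhba.

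**Figure D3:**
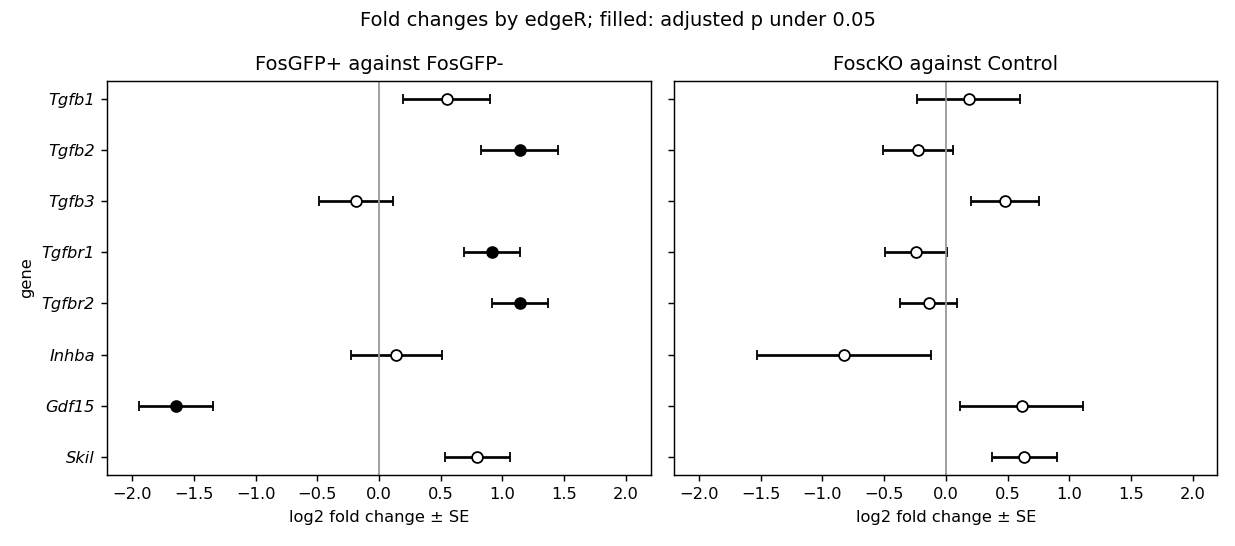
log2 fold change ± SE of each of the 8 genes by edgeR, FosGFP+ against FosGFP- on the left and FoscKO against Control on the right, with filled points for an adjusted p under 0.05. Tgfb2, Tgfbr1 and Tgfbr2 are filled above 0 and Gdf15 below 0 on the left, from -1.64 to 1.14, and no point is filled on the right.

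FosGFP- replicate 4 had the lowest share of reads in genes and the highest even background. Every member other than Inhba had its lowest FosGFP- level in that library. Without it the log2 fold changes were 0.91 for Tgfb2, 0.78 for Tgfbr1, 1.04 for Tgfbr2 and -1.68 for Gdf15, with edgeR adjusted p-values of 0.0393, 0.0272, 0.00757 and 0.00378, so the 4 calls do not rest on it. Scaling mattered more: against TMM, total counts moved the median log2 fold change of all genes by -0.40 and TMM from genes of at least 50 CPM by -0.58. With the even background subtracted, Tgfbr1 (0.75, edgeR adjusted p = 0.0499), Tgfbr2 (1.011, adjusted p = 0.0165) and Gdf15 (-1.97, adjusted p = 0.00519) kept their calls and Tgfb2 did not. The part of the satellite cell marker sum and of the read share in these results was not tested. In bulk libraries, fewer cells of a type and less RNA per cell cannot be told apart.

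**Figure D4:**
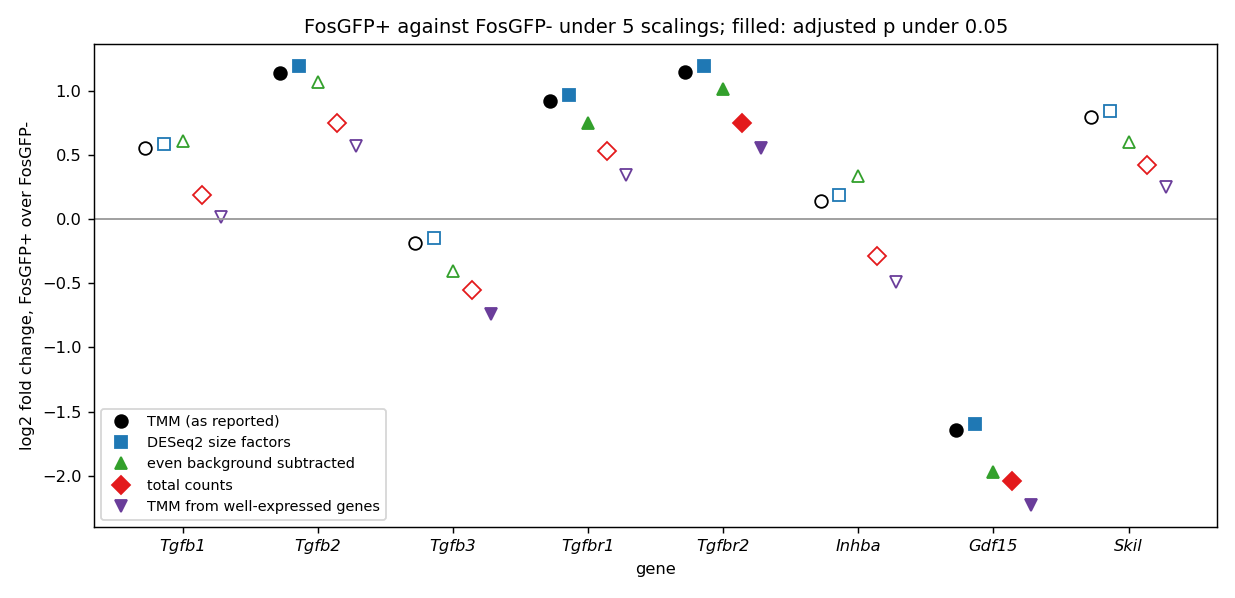
log2 fold change of the 8 genes, FosGFP+ against FosGFP-, under each way of scaling the libraries, with filled points for an edgeR adjusted p under 0.05. Tgfbr2 stays filled above 0 (0.55 to 1.19) and Gdf15 filled below 0 (-2.23 to -1.60) in all 5 settings shown, whereas Tgfb2 and Tgfbr1 are open where libraries are scaled by total counts or by well-expressed genes, and Tgfb2 also with the background subtracted.

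Compared per exonic kb, the order of levels was led by Skil in FosGFP+ and by Tgfb3 in FosGFP-. In FosGFP+ the mean levels were 53.8 ± 12.3 CPM per kb for Skil, 31.6 ± 8.90 for Tgfb3, 29.0 ± 6.49 for Tgfbr1, 24.3 ± 6.11 for Tgfbr2 and 17.2 ± 6.13 for Tgfb2 (SD, n = 4). Below them came Gdf15 at 7.42 ± 3.37, Tgfb1 at 6.24 ± 2.00 and Inhba at 2.18 ± 0.560 CPM per kb. From Tgfb3 to Tgfb2, and between Gdf15 and Tgfb1, the means ± SD of neighbours in this order overlapped. In FosGFP- the order was Tgfb3 at 36.0 ± 16.0, Skil at 30.9 ± 12.0, Gdf15 at 23.3 ± 1.97, Tgfbr1 at 15.3 ± 4.35, Tgfbr2 at 11.0 ± 2.90, Tgfb2 at 7.82 ± 3.21, Tgfb1 at 4.24 ± 2.00 and Inhba at 1.98 ± 0.981 CPM per kb. There the means ± SD of all neighbours overlapped other than those of Gdf15 and Tgfbr1. In FosGFP- Gdf15 stood above both receptor genes and Tgfb2, and in FosGFP+ below them. These levels come from amplified RNA, in which the yield of a transcript can differ with its length.

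The genes whose levels ran most alike with each called member over the 8 libraries of the first dataset are given as a description. For Tgfb2 they were Mta2 (Pearson r of 0.991 on the log2(CPM + 1) scale), Cerk (0.988) and Prpf8 (0.985), and for Tgfbr1 they were Tra2b (0.989), Ddr2 (0.989) and Il6st (0.988). For Tgfbr2 they were Tsn (0.985), Exoc6b (0.983) and Ctsb (0.981). For Gdf15 they were Tubg1 (0.976), Greb1l (0.976) and the olfactory receptor gene Olfr160 (0.972). These are the highest of 15796 genes, over libraries that share the group difference, depth and background.

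Around the 8 members, 59 further genes of the pathway were listed by role, and 54 had enough counts in the first dataset. There 10 were called higher in FosGFP+ and 1 lower, which is 20.4% of those tested, beside 12.1% of all genes tested in either direction and 10.3% higher. Their median log2 fold change was 0.26, beside -0.18 over all genes tested. Under TMM on genes of at least 50 CPM, 5 were called higher and 6 lower, beside 722 higher and 5252 lower among the 20698 genes tested. Intracellular inhibitors gave 3 of 9, with Tgif1, a homeodomain corepressor of SMAD complexes, at 1124 ± 167 CPM in FosGFP+ and 339 ± 73.9 CPM in FosGFP- (SD, n = 4 each; log2 fold change 1.73 ± 0.19, edgeR adjusted p = 1.25e-04). The ubiquitin ligase gene Smurf2 (1.10, edgeR adjusted p = 0.00732) and the SMAD phosphatase gene Ppm1a (0.94, adjusted p = 0.00753) were also called higher, and lost their calls with total counts (0.0628 and 0.0588). Among 4 tested genes of SMADs and adaptors, Smad4 (1.06, edgeR adjusted p = 0.011) and Smad2 (0.66, adjusted p = 0.0419) were called higher, and both lost their calls with total counts (0.64 and 0.27, adjusted p = 0.0578 and 0.26) and with the background subtracted. The Smad4 groups overlapped, with FosGFP+ replicate 3 at 93.3 CPM and FosGFP- replicate 3 at 106 CPM. Smad4 kept its call without any single library, and Smad2 lost its call in 6 of the 8 fits that left out a library. Smad3 averaged 199 ± 45.7 CPM in FosGFP+ and 104 ± 58.7 CPM in FosGFP-, with overlap (0.94, edgeR adjusted p = 0.116). Pmepa1, which encodes a membrane protein that holds back SMAD signalling, had 326 ± 128 CPM in FosGFP+ and 163 ± 85.5 CPM in FosGFP-, with overlap (1.00, edgeR adjusted p = 0.063).

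Of 12 target genes 4 were called higher and none lower. Ccn2, which encodes connective tissue growth factor, was at 1978 ± 110 CPM in FosGFP+ and 718 ± 114 CPM in FosGFP- (SD, n = 4 each; log2 fold change 1.46 ± 0.17, edgeR adjusted p = 1.58e-04). The integrin gene Itga5 (1.48, edgeR adjusted p = 0.00622) and the cell cycle inhibitor gene Cdkn1a (1.04, adjusted p = 0.00131) kept their calls under every scaling tried. Col4a1, which encodes a basement membrane collagen chain, had 1334 ± 420.02 CPM in FosGFP+ and 720 ± 411 CPM in FosGFP-, with overlap (0.89, edgeR adjusted p = 0.141). Each of these genes is also regulated by other pathways.

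Of 12 genes of latency and activation, Furin, which encodes a protease that cuts the TGF-beta precursor, was called higher, at 165 ± 19.7 CPM in FosGFP+ and 62.3 ± 28.9 CPM in FosGFP- (SD, n = 4 each; log2 fold change 1.41 ± 0.29, edgeR adjusted p = 0.0044). Ltbp4 and Ltbp1, which encode proteins that tie latent TGF-beta to the matrix, were the most abundant genes of this role. Ltbp4 had 1695 ± 256 CPM in FosGFP+ and 1131 ± 483 CPM in FosGFP-, with overlap (0.58, edgeR adjusted p = 0.184). Ltbp1 had 706 ± 134 CPM in FosGFP+ and 424 ± 163 CPM in FosGFP-, with overlap (0.73, edgeR adjusted p = 0.0771). Of the 8 further receptor genes none was called higher, and the activin receptor gene Acvr2b was called lower, at 7.28 ± 2.17 CPM in FosGFP+ and 16.6 ± 6.18 CPM in FosGFP- (SD, n = 4 each; -1.18 ± 0.36, edgeR adjusted p = 0.0416). That call on a gene of low counts was lost in 5 of the 8 fits that left out a library. Tgfbr3, the betaglycan coreceptor gene, had 594 ± 114 CPM in FosGFP+ and 423 ± 161 CPM in FosGFP-, with overlap (0.49, edgeR adjusted p = 0.257). None of the 5 tested ligand genes or 4 extracellular inhibitors was called. The most abundant of these were Inhbb, which encodes the beta B subunit of activin, at 43.9 ± 5.99 CPM in FosGFP+ and 39.6 ± 24.7 CPM in FosGFP- (0.14, edgeR adjusted p = 0.808), and the gene of the TGF-beta-binding proteoglycan decorin, Dcn, which is also among the fibro-adipogenic progenitor markers above, at 175 ± 156 CPM in FosGFP+ and 336 ± 161 CPM in FosGFP- (-0.95, adjusted p = 0.424).

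**Figure D5:**
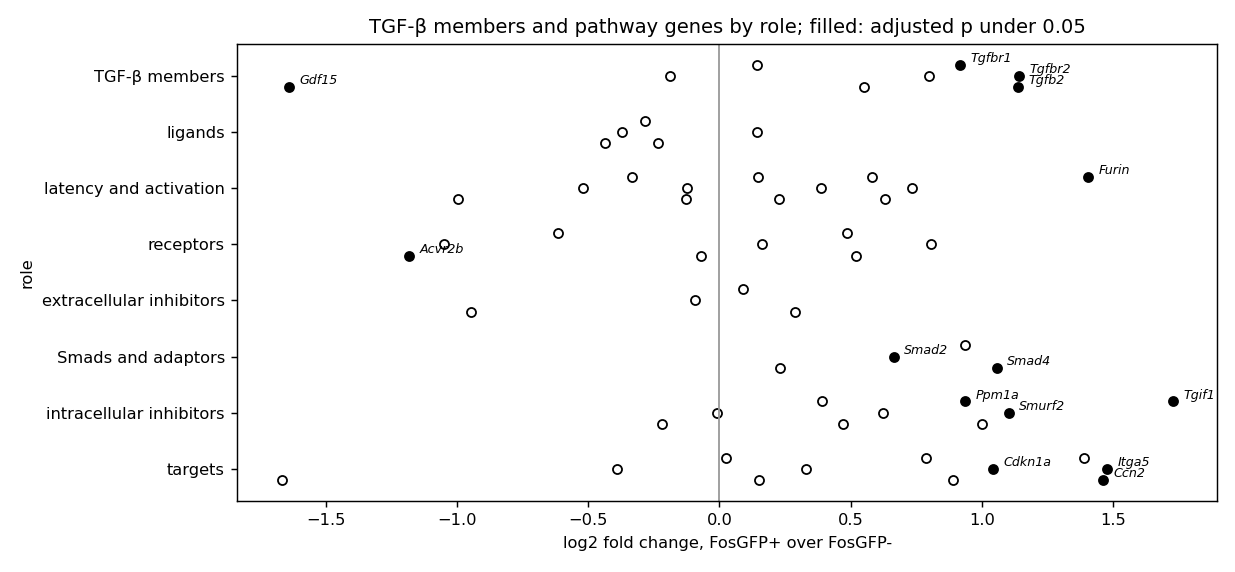
log2 fold change, FosGFP+ against FosGFP-, of the tested pathway genes and the members, by role, with filled points for an edgeR adjusted p under 0.05; 1 target gene is not shown. Filled points above 0 lie among the members, SMADs, intracellular inhibitors, targets and Furin; Gdf15 and Acvr2b are filled below 0.

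In the FoscKO libraries none of the 8 genes passed the test against Control. Of 21885 genes tested 0% were called by edgeR, with 1208 genes (5.52%) at an unadjusted p under 0.05 and 59 higher and 34 lower by DESeq2, none of them a member. The 8 log2 fold changes ran from -0.83 to 0.63, with 4 above and 4 below 0, a median of 0.02 (-0.04 over all genes tested) and edgeR adjusted p-values from 0.861 to 0.96. The authors' deposited table of this comparison, with 69 genes at an adjusted p up to 0.0498, lists none of the 8. With 3 libraries a group the spread was wide, and a p that misses the threshold does not show that levels were alike.

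Skil was the member whose FoscKO and Control libraries did not overlap, as was so in 12.2% of all genes tested (5.75% higher and 6.47% lower in FoscKO). It had 593, 568 and 397 CPM in FoscKO, against 317, 350 and 337 CPM in Control. The means were 519 ± 107 CPM in FoscKO and 335 ± 16.7 CPM in Control (SD, n = 3 each). The log2 fold change was 0.63 ± 0.26 (SE; edgeR unadjusted p = 0.0305, adjusted p = 0.861). It was above 0 in all settings run, at 0.53 without FoscKO replicate 1.

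Gdf15 had 232, 28.7 and 98.0 CPM in FoscKO, against 82.8, 60.9 and 91.4 CPM in Control. FoscKO held both the highest and the lowest of these 6 libraries, and the log2 fold change of 0.61 ± 0.50 (SE; edgeR adjusted p = 0.914) turned to -0.29 without FoscKO replicate 1. That library had the most counts, the largest share of reads in genes (30.2%, against 15.9 and 22.7% in the other FoscKO libraries and 16.8 to 19.0% in Control) and the fewest genes with a count, 31483. Summed CPM of 12 satellite cell markers was 7721 to 14132 in FoscKO and 7922 to 11492 in Control, and that of smooth muscle and pericyte markers 786 to 1454 in FoscKO and 643 to 905 in Control. That of mature fibre markers was 509 to 1738 in FoscKO and 1496 to 3250 in Control, and no marker of these lists was called. Inhba had 0.540, 5.96 and 6.49 CPM in FoscKO, against 8.80, 9.05 and 5.21 CPM in Control, with 4 counts in FoscKO replicate 1. Per exonic kb it averaged 0.678 CPM in FoscKO and 1.203 CPM in Control, at the scale of the even background of 0.444 to 0.845 CPM per kb in FoscKO and 0.706 to 0.761 in Control.

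Tgfb3 had 269, 141 and 194 CPM in FoscKO, against 142, 162 and 128 CPM in Control, with overlap (log2 fold change 0.48 ± 0.28, edgeR adjusted p = 0.914). Tgfb2 had 124, 74.2 and 127 CPM in FoscKO, against 162, 120 and 100 CPM in Control, also with overlap (-0.23 ± 0.28, adjusted p = 0.927). Tgfb1 lay at 37.4, 12.3 and 22.0 CPM in FoscKO, against 30.5, 14.9 and 18.1 CPM in Control. Its log2 fold change of 0.18 ± 0.42 (edgeR adjusted p = 0.96) turned to -0.10 with total counts. Within each library, Tgfb2 made up 19.8, 22.5 and 26.2% of the ligand signal per kb in FoscKO, against 36.8, 28.9 and 29.4% in Control. The FoscKO shares were all lower, with means of 22.9% ± 3.22 in FoscKO and 31.7% ± 4.399 in Control (SD, n = 3 each; exact permutation p = 0.1, the smallest that 3 against 3 allows, adjusted 0.2 over the 8 comparisons). The design cannot reach p under 0.05.

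Neither receptor gene passed the test in the second dataset. Tgfbr1 had 133, 152 and 135 CPM in FoscKO, against 142, 213 and 143 CPM in Control (log2 fold change -0.25 ± 0.25, edgeR adjusted p = 0.917). Tgfbr2 had 122, 107 and 133 CPM in FoscKO, against 131, 136 and 133 CPM in Control (-0.14 ± 0.23, adjusted p = 0.945). In both genes the groups overlapped. Of the 53 tested pathway genes none was called. Ltbp1, at 727 ± 74.1 CPM in FoscKO and 555 ± 98.4 CPM in Control (SD, n = 3 each; log2 fold change 0.39 ± 0.27, edgeR adjusted p = 0.914), did not overlap, as was so in 12.2% of all genes tested. Of the pathway genes called in the first dataset, Smad4 (0.40) did not overlap either and was higher in FoscKO, and Itga5 (-0.45) was lower without overlap. Other pathway genes without overlap lay on both sides of 0 as well. Ltbp4 had 1750.0 ± 642 CPM in FoscKO and 1384 ± 32.9 CPM in Control (0.34, edgeR adjusted p = 0.917), and Col4a1 had 1882 ± 436 CPM in FoscKO and 1344 ± 235 CPM in Control (0.49, adjusted p = 0.914). Ccn2 had 1229 ± 244 CPM in FoscKO and 1022 ± 243 CPM in Control (0.27, adjusted p = 0.922).

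Set side by side, the 4 members called in FosGFP+ against FosGFP- had values of the other sign in FoscKO against Control, none of which passed. Tgfb2 had log2 fold changes of 1.14 and -0.23 in these comparisons, Tgfbr1 0.92 and -0.25, Tgfbr2 1.14 and -0.14, and Gdf15 -1.64 and 0.61. The sign in FoscKO is not settled for any of these 4. Gdf15 is at -0.29 without FoscKO replicate 1, and Tgfb2 is at 0.00 without FoscKO replicate 2. Tgfbr1 (-0.25 ± 0.25) and Tgfbr2 (-0.14 ± 0.23) lie within 1 SE of 0. The share of all called genes with values of the other sign was not computed. Skil was above 0 in both, at 0.80 and 0.63. The Tgfb2 share of the ligands was higher by 14.7 percentage points in FosGFP+ and lower in FoscKO, at -8.83 percentage points. The 2 datasets differ in age and were counted in separate tables, and no test of the difference between them was made.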

How the data were processed

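RNA of sorted satellite cells was sequenced in 14 libraries with SMART-Seq v4 and Nextera XT on an Illumina HiSeq instrument, per the labels' protocols. The authors deposited raw counts per Ensembl gene for each dataset, in 2 tables of 49671 genes with 5 HTSeq lines that name no gene and were left out. The submitters' processing notes name limma, DESeq2 1.20.0, HTSeq 0.6.1, STAR 2.5.0c and the build GRCm38, with no role given. The authors also deposited log2 fold changes and p-values of their own comparisons, whose sign was turned here, and 14 columns of per-library values in those tables were not used because their names match no label.

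Gene symbols, exonic lengths and positions were taken from GENCODE M21 (GRCm38), in which 49326 genes matched, and promoters from RefSeq (GRCm38.p6). Each table was filtered with filterByExpr, scaled by TMM and tested by the two-sided quasi-likelihood F-test with robust dispersions in edgeR 4.0.16 (R 4.3.3) without covariates, with Benjamini-Hochberg adjustment over all genes tested. The test was tried on simulated counts in which 200 genes were changed by a known fold. At 2-fold it recovered 37 of them in the first dataset and 3 in the second, with 2 false calls in each. At 4-fold it recovered 166 and 137, with 7 and 4 false calls. Those 200 were among 19614 to 20683 genes run, whereas 12.1% of genes tested were called in FosGFP+ against FosGFP-. Benjamini-Hochberg adjustment depends on the share of changed genes, so these counts do not give the recovery in the real data. CPM are counts scaled to the TMM library size. The even background is the rate per exonic kb over 1467 receptor genes of smell and taste.

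The members and lists were chosen with earlier results of these data known. Named genes are the members, Fos, pathway genes that passed the test, up to 2 further pathway genes per role by mean CPM, 3 genes most alike to each called member, and leading markers of other cells. Of the satellite cell markers Pax7, Sdc4, Calcr and Myod1 are named, all but Pax7 after their values were seen. Col3a1 was also named after its values were seen. Of the further pathway genes the text gives the most abundant of each role in the first dataset, with Ltbp1. In the second dataset it gives Ltbp1, Ltbp4, Col4a1, Ccn2, Smad4 and Itga5. These were chosen after their values were seen. A pathway gene that passed the test is counted but not reported here. Alternatives were DESeq2 size factors, TMM computed on genes with 50 CPM or more, total counts, no filter, a filter at 5 CPM, DESeq2 1.42.0, limma-voom (limma 3.58.1), the replicate number as a block, background subtraction and leaving out each library. Ligand shares with the background subtracted or not divided by length were added after seeing the data.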

Additional observations from a re-analysis of the deposited data

How the results depend on the processing

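The calls of Tgfbr2 and Gdf15 in FosGFP+ against FosGFP- held in all settings run, and no member or pathway gene was called in FoscKO against Control in any. Genes called higher and lower in FosGFP+ numbered 2125 and 383. They numbered 1005 and 2243 under total counts and 722 and 5252 under TMM on genes of at least 50 CPM. With the background subtracted 1324 were higher, and the lower ones numbered 588 with a filter at 5 CPM and 648 by DESeq2. Under each of these 2 scalings 1 member (in place of 3) and 5 pathway genes (in place of 10) were called higher, and under TMM on genes of at least 50 CPM 2 members and 6 pathway genes were called lower. Pathway genes called lower were 0 with DESeq2 size factors, no filter or the background subtracted. In FoscKO, where edgeR called 0 genes, the higher and lower ones numbered 12 and 33 under total counts, 11 and 32 under TMM on genes of at least 50 CPM, 85 and 46 with no filter, 12 and 20 at 5 CPM, 59 and 34 by DESeq2, 3 and 3 by limma-voom and 2 and 13 with the background subtracted. The cause of these shifts was not tested.

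Signs turned in genes that were not called. In FosGFP+ against FosGFP-, the log2 fold change of Inhba was -0.29 under total counts and -0.49 under TMM on genes of at least 50 CPM, and that of Inhbb was -0.24 and -0.43. That of Tgfbr3 was -0.069 under TMM on genes of at least 50 CPM and that of Inhbb -0.0073 with the background subtracted. In FoscKO against Control, under total counts and under TMM on genes of at least 50 CPM, it was -0.28 and -0.27 for Fos, -0.10 and -0.093 for Tgfb1, and -0.12 and -0.11 for Tgfbr3. For Fos it was -0.091 at 5 CPM, -0.13 by limma-voom and -0.15 with the background subtracted, which put Tgfbr3 at -0.026. Leaving out each library in turn gave 1689 to 2202 genes higher and 184 to 364 lower in FosGFP+, 2 to 4 members higher, 8 to 12 pathway genes higher and 0 to 1 lower. In FoscKO it gave 0 to 16 higher and 0 to 27 lower, the most without FoscKO replicate 1. Log2 fold changes that turned ran from -0.43 to 0.11 for Tgfb3 and from -0.016 to 0.53 for Inhba and -0.080 to 0.66 for Inhbb in FosGFP+. In FoscKO they ran from -0.56 to 0.33 for Fos, -0.29 to 0.56 for Tgfb1, -0.36 to 0.00088 for Tgfb2, -0.29 to 1.10 for Gdf15 and -0.41 to 0.074 for Tgif1. The difference in Tgfb2 share was 10.7 to 17.8 percentage points in FosGFP+ and -10.5 to -6.30 in FoscKO, and that of Tgfb3 in FoscKO was 5.95 without Control replicate 1, against 9.44 with all libraries.

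The replicate number is shared across groups, but no label says what it marks. Deviations of same-numbered libraries from their group means had correlations of -0.006 to 0.021 in the first dataset and -0.027 to 0.148 in the second. Those of libraries with unlike numbers ran from -0.124 to 0.156 and from -0.173 to 0.170. Such values cannot settle whether same-numbered libraries share a mouse. Without a label to say so, the number was not taken as a pairing. With it as a block, 2002 genes were higher and 278 lower in FosGFP+, with 4 members higher, Skil among them (edgeR adjusted p = 0.0371), and 23 were higher and 20 lower in FoscKO, where Fos stood at -0.13. Low counts limit Inhba in both datasets.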
